A study of Musca domestica with 16 samples.

Results

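Ovaries of the house fly, Musca domestica, were compared with female heads within each of 2 strains. The members are the 4 female libraries among the 16 of the series, 1 female head library and 1 ovary library from strain CS and the same pair from strain CSaY, chosen by their tissue and sex labels. All came from unmated females 4 to 6 days old, kept at 25 °C and dissected alive, and polyA-selected RNA was sequenced. The strains carry the male-determining factor at different places, on chromosome III in CS (IIIM) and on the Y chromosome in CSaY (YM). The other 12 libraries, 3 each from male heads and testes of both strains, entered no test and are used only as the authors' pooled values.

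The fly ovary holds the germ line, in which nurse cells load the oocyte with messenger RNA and protein for the embryo, and the follicle cells that surround it. The head holds brain, compound eyes, antennae and mouthparts, with muscle, cuticle and fat body, the insect tissue that combines roles of liver and adipose tissue. In flies, head fat body and sensory organs are known for detoxification enzymes, secreted immune peptides and odour or light receptors, and in females fat body also makes yolk proteins that the ovary takes up.

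Values are FPKM as deposited, which scale fragments per gene by gene length and library total. Heads put more of their signal into few genes. The 10 most abundant genes held 13.6% and 14.7% of the summed FPKM in the CS and CSaY heads, against 7.75% and 8.94% in the ovaries. Genes with at least 1 FPKM numbered 9380 and 9369 in heads and 7679 and 7783 in ovaries, whereas genes with at least 100 FPKM numbered 1295 and 1287 in heads and 1458 and 1471 in ovaries. Heads therefore listed more genes at low levels and ovaries more at high levels. Among the 3717 genes with at least 10 FPKM in all 4 libraries, the median ovary value was 1.71 times the head value in CS and 1.72 times in CSaY. Differences below are on the log2(FPKM + 1) scale, as ovary minus head, after ovary values were divided by these medians. FPKM values themselves are printed as deposited. Folds of single genes are on the same scale, which understates the change of low genes, and groups with a 0 have no fold. In these bulk samples, fewer cells of a type and less RNA per cell cannot be told apart.

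A gene was called when limma's test across the 4 libraries gave a Benjamini-Hochberg adjusted p below 0.05 and the difference was at least 2-fold in the same direction in both strains. Each tissue has 2 libraries, which also differ in strain, and nothing in the labels says how many animals each one pools. The p-values therefore measure only the spread between these libraries. Of 9708 genes tested (mean of at least 1 FPKM over the 4 libraries), 2480 were higher in ovary, 25.5% of those tested, and 3403 were lower, 35.1%. The lower genes also moved farther. At 16-fold or more there were 989 lower against 220 higher genes, and at 64-fold or more 378 against 49. The filter bears on these counts. Of the genes tested, 2063 had an ovary mean below 1 FPKM and passed through the heads alone, and 1941 of them were lower, so their direction followed from the filter. Another 689 passed through the ovaries alone, and 522 of them were higher. Of the 6956 genes with a mean of at least 1 FPKM in each tissue, 1958 were higher (28.1%) and 1462 lower (21.0%). The split depends on the centring. Without it 3798 genes were higher and 2890 lower, so that the higher share of the calls went from 42.2% to 56.8%. The median difference over all tested genes went from -0.12 to 0.58, while genes listed at 0 in both ovaries, such as defensin-1, hardly moved. With the centre taken over the 6687 genes with at least 1 FPKM in all 4 libraries, 2044 were higher and 3684 lower, a higher share of 35.7%. The median difference was then -0.41.

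Heads and ovaries gave much the same differences in both strains. The strains' differences lay a median of 0.28 apart, and 12 of the 9708 genes were at least 2-fold one way in CS and at least 2-fold the other way in CSaY. Between strains, 314 of 5601 genes with a mean of at least 10 FPKM in heads differed at least 2-fold (5.61%), against 80 of 6053 in ovaries (1.32%). The libraries of a tissue were thus closer for ovaries than for heads, with 1 library per strain and tissue and no test of that gap.

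**Figure D1:**
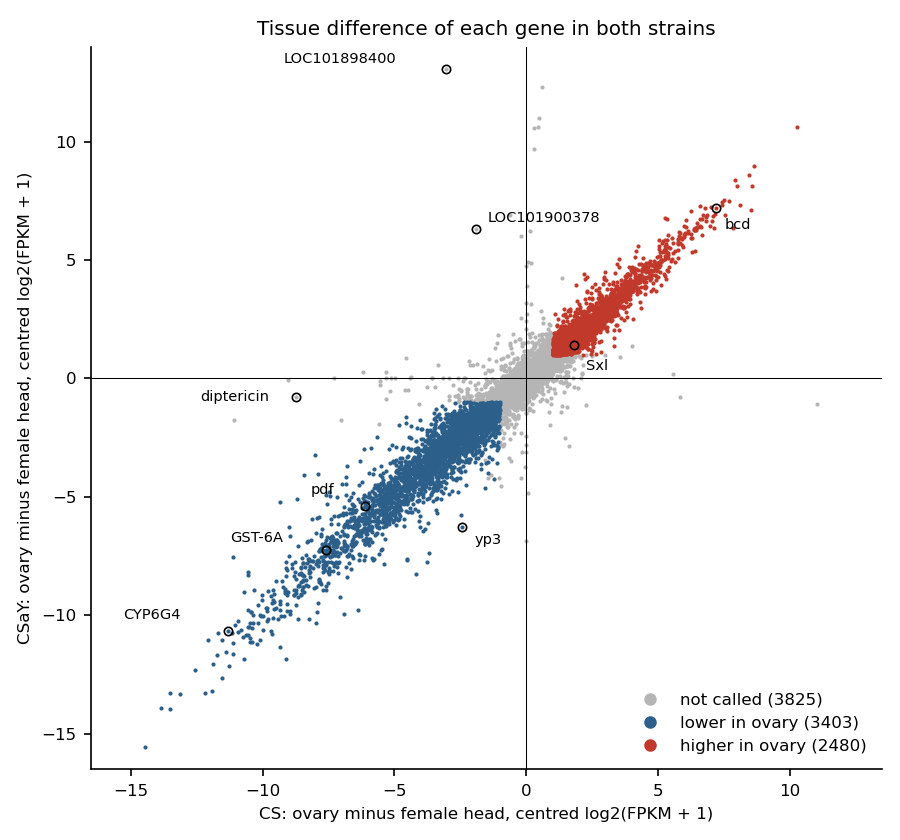
Ovary minus female head difference of each of the 9708 tested genes, in centred log2(FPKM + 1), in CS on the horizontal and CSaY on the vertical axis, coloured by call. Most genes lie near the diagonal, with bcd at the upper right and CYP6G4 at the lower left, while diptericin and LOC101898400 lie far from it.

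Of the 57 genes with a name, 51 were tested, of which 8 were higher in ovary, 33 were lower and 10 were not called, beside 25.5% higher and 35.1% lower over all tested genes. Of the 51, 20 passed the filter through the heads alone and 1, bcd, through the ovaries alone. The genes Mda6, MdRdl, achaete, CYP12A1, argos and chitinase fell below the mean of 1 FPKM. Names were found for few genes of either tissue, so lists for photoreceptors, muscle, egg coat, piRNA pathway, DNA replication and histones had no member with a matching name, and the named genes are a small and uneven sample.

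**Figure D2:**
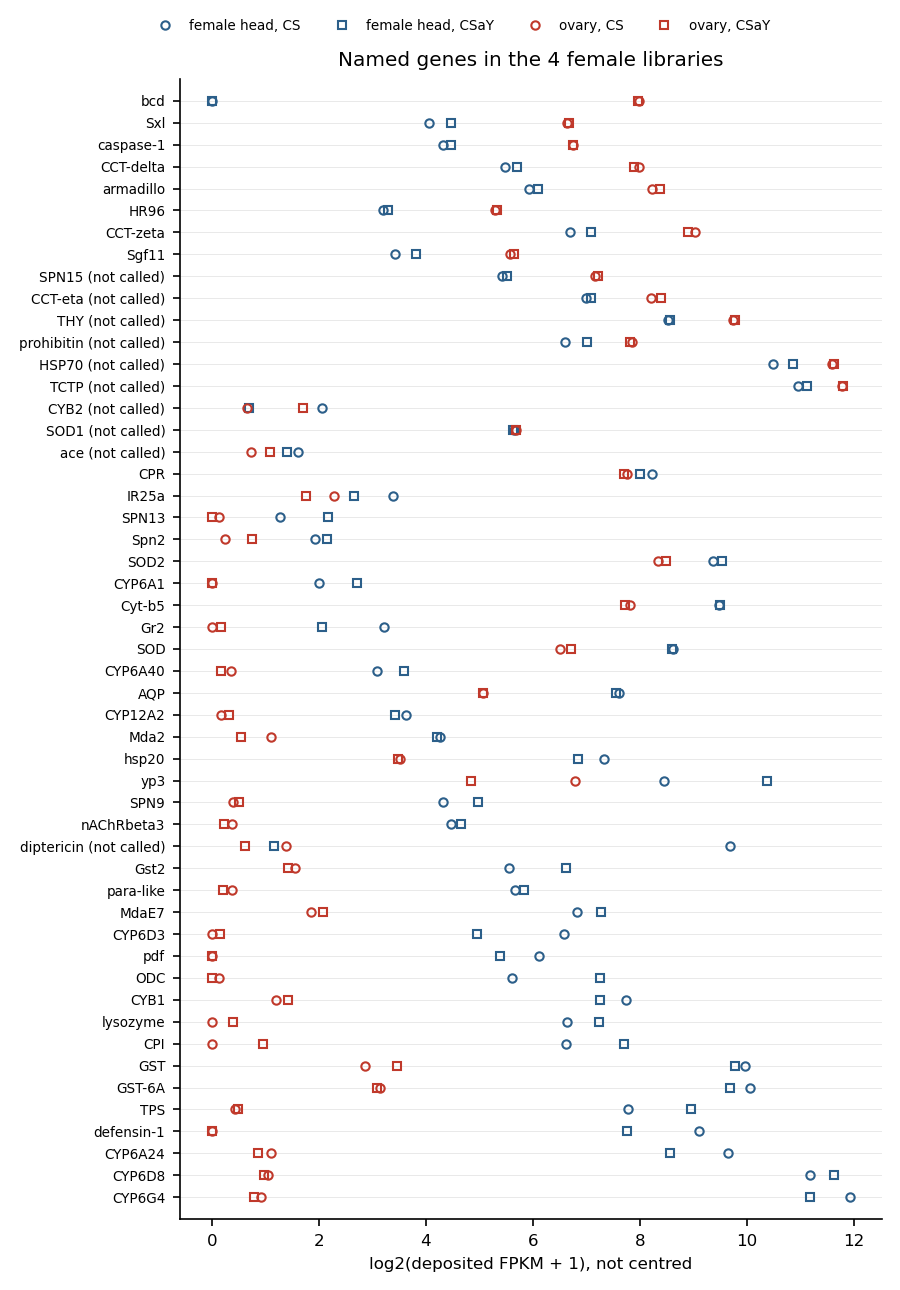
Deposited FPKM of the 51 tested genes with a name, on a log2(FPKM + 1) axis without centring, 1 symbol per library (blue for female head, red for ovary, circles for CS and squares for CSaY), sorted by centred difference. The 2 libraries of a tissue lie close together for most genes, and diptericin is the named gene whose CS head stands farthest from its CSaY head.

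Markers of ovary and of nerve cells were high in the tissue of their label and near 0 or low in the other. The maternal gene bcd encodes the homeodomain protein that patterns the head end of the embryo in Drosophila, where its messenger RNA is loaded into the egg. It was listed at 0 FPKM in both heads and at 253 FPKM in the CS ovary and 249.7 in the CSaY ovary. Both ovaries were high and close to each other, and the fitted difference was 7.20 ± 0.11 (limma SE, n = 2 libraries a tissue, limma adjusted p = 4.16e-05). Male heads were also listed at 0, and testes held 1.96 and 0.577 FPKM in IIIM and YM males. The gene lies at positions 317367 to 329223 of scaffold NW_004764550, which the authors' deposited table places on chromosome II.

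Sxl encodes an RNA-binding protein that directs sex determination in Drosophila. It stood at 15.6 FPKM in the CS head and 21.2 in the CSaY head, and at 97.9 and 100.7 in the ovaries. The groups did not overlap, and the difference of 1.62 ± 0.17 is 3.07-fold (limma adjusted p = 0.0014). Testes held 16.6 and 14.4 FPKM and male heads 30.3 and 31.6, so the ovary values were the highest of the 8 listed. Both ovary markers that carried a name, bcd and Sxl, were therefore higher, beside 25.5% of all tested genes. Each was also the only named member of its own list, maternal patterning and sex determination. The gene bcd passed the filter through the ovaries alone, so its direction followed from it.

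Nerve cell genes went the other way. The gene para-like, named for the voltage-gated sodium channel that carries action potentials, had 49.6 and 56.2 FPKM in the heads and 0.293 and 0.162 in the ovaries. Its ovary level was near 0 in both strains, and the difference was -5.57 ± 0.14 (limma adjusted p = 6.08e-05). The nicotinic acetylcholine receptor subunit nAChRbeta3 had 21.2 and 24.1 FPKM in heads and 0.291 and 0.169 in ovaries, a difference of -4.38 ± 0.14 (limma adjusted p = 8.29e-05). In males nAChRbeta3 did not follow that order, with 44.6 and 32.0 FPKM in heads and 68.7 and 122 in testes. The neuropeptide gene pdf, whose product couples clock neurons in insects, had 68.5 and 40.9 FPKM in heads and was listed at 0 in both ovaries. Its difference was -5.76 ± 0.28 (limma adjusted p = 0.000166). Both head neuron markers, para-like and nAChRbeta3, were lower in ovary, beside 35.1% of all tested genes. The same genes are the sole named member of the channel list and the sole tested member of the receptor list. In the receptor list MdRdl was too low to test. Both markers and pdf had an ovary mean below 1 FPKM and passed the filter through the heads alone, so their direction followed from it.

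The antennal and taste lists hold the same named genes, Gr2 and IR25a, and both were lower in ovary, beside 35.1% of all tested genes. Gr2 passed the filter through the heads alone, so its direction followed from it. Gr2, named as a gustatory receptor, had 8.27 and 3.19 FPKM in heads and 0 and 0.132 in ovaries, with a difference of -2.59 ± 0.43. IR25a, a co-receptor of the ionotropic chemosensory receptors, had 9.42 and 5.30 FPKM in heads and 3.88 and 2.39 in ovaries, with a difference of -1.54 ± 0.32. The call of Gr2 was lost when the CS ovary was left out, where the difference barely moved (-2.53) and 1 ovary library remained. Its limma adjusted p of 0.00555 ran from 0.00198 to 0.0505 over its alternatives. The call of IR25a was lost without centring (-0.996), without the CS head (-1.18) and without the CSaY ovary (-1.31). Its limma adjusted p was 0.0122 and ran from 0.00448 to 0.0888 over the alternatives. Testes held 113 and 117 FPKM of IR25a, more than any female library.

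The remaining named genes higher in ovary were CCT-delta, CCT-zeta, armadillo, caspase-1, HR96 and Sgf11. CCT-delta and CCT-zeta are subunits of the cytosolic chaperonin that folds actin and tubulin. CCT-delta had 43.4 and 51.1 FPKM in heads and 253 and 236 in ovaries, a difference of 1.58 ± 0.12, or 2.98-fold (limma adjusted p = 0.000524). CCT-zeta had 102 and 135 FPKM in heads and 519.8 and 476 in ovaries, a difference of 1.29 ± 0.17 (limma adjusted p = 0.00265). The third subunit, CCT-eta, had 126 and 134 FPKM in heads and 294 and 336 in ovaries, and its difference of 0.49 ± 0.11 stayed below 2-fold and was not called. Of the 3 chaperonin genes 2 were higher in ovary, beside 2480 of the 9708 tested genes (25.5%). Without centring all 3 were higher, beside 3798 of the tested genes. With the centre over genes of at least 1 FPKM 1 was higher, beside 2044 of the tested genes.

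Armadillo, the fly beta-catenin of cell adhesion and Wnt signalling, had 60.1 and 67.3 FPKM in heads and 298 and 330.1 in ovaries, a difference of 1.51 ± 0.11, or 2.85-fold (limma adjusted p = 0.000465). The protease gene caspase-1 had 19.0 and 21.1 FPKM in heads and 106 and 106 in ovaries, 2.99-fold (limma adjusted p = 0.000325). In its ortholog group 1 further gene was higher in ovary, and 1 that passed the filter through the heads alone was lower. The nuclear receptor HR96 (2.49-fold) and Sgf11, a subunit of a deubiquitinating module that acts on histones (2.36-fold), were also higher. The calls of CCT-zeta, HR96 and Sgf11 were lost with the centre over genes of at least 1 FPKM, where their differences were 0.98, 1.01 and 0.93.

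The 3 genes with the largest ovary excess of any kind carry no name in the sources used here. LOC101895010 had 0.393 and 0.137 FPKM in heads and 2949 and 3082 in ovaries, a difference of 10.45 ± 0.14 (limma adjusted p = 3.82e-05). It lies at positions 188000 to 192723 of scaffold NW_004764486 on chromosome V, and the authors' deposited table pairs it with the Drosophila gene FBgn0000405. Testes held 124 and 93.0 FPKM of it, and male heads below 1. LOC101894204 had 0.751 and 0.438 FPKM in heads and 1203 and 1232 in ovaries, and the table lists no Drosophila gene for it. LOC101895154, paired with FBgn0036689 on chromosome IV, had 0.429 and 0.340 FPKM in heads and 849 and 877 in ovaries. Both had little signal in testes, with 6.16 and 6.08 FPKM for LOC101894204 and 1.97 and 1.54 for LOC101895154. These 3 genes had a head mean below 1 FPKM and passed the filter through the ovaries alone, so their direction followed from it.

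On the head side the detoxification genes made up the largest named group. Cytochrome P450 enzymes are haem proteins that oxidise hormones, plant compounds and insecticides. All 7 tested members of the P450 list were lower in ovary, with a median difference of -5.72 against -0.12 over all tested genes. Over all tested genes 35.1% were lower, and in ortholog groups of 10 or more genes 67.8%. Of the 7, 6 had an ovary mean below 1 FPKM and passed the filter through the heads alone. The eighth, CYP12A1, was too low to test. CYP6G4 had 3893 and 2321 FPKM in heads and 0.895 and 0.728 in ovaries, a difference of -11.00 ± 0.28 (limma adjusted p = 6.1e-05). CYP6D8 had 2307 and 3155 FPKM in heads and 1.07 and 0.965 in ovaries, and CYP6A24 had 799 and 378 in heads and 1.16 and 0.815 in ovaries. The summed FPKM of the 8 listed genes was 7116 and 5911 in the heads and 3.53 and 2.99 in the ovaries. The other members, CYP6D3, CYP12A2, CYP6A40 and CYP6A1, were lower by between -5.72 and -2.36 on the log2 scale, and CYP6A1 was the lowest of them in heads, at 2.99 and 5.59 FPKM.

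The 4 ortholog groups that hold the named P450 genes contain 61 house fly genes, of which 37 were tested. Of the 61, 20 had at least 10 FPKM in both heads, 3 had it in both ovaries, and 49 lay below 1 FPKM in both ovaries. Of the 37 tested, 35 were lower in ovary, but 28 passed the filter through the heads alone, so their direction followed from it. Of the other 9, 8 were lower, beside 21.0% of all genes with a mean of at least 1 FPKM in each tissue. These groups were chosen after the values of the named genes were known. The electron donors of P450 enzymes moved less. Cytochrome b5 (Cyt-b5) had 712 and 722 FPKM in heads and 224 and 210.1 in ovaries, a difference of -2.50 ± 0.09. The P450 reductase gene CPR had 297 and 255 FPKM in heads and 215 and 208 in ovaries, a difference of -1.15 ± 0.11 that was lost without centring (-0.38). CPR was 2.22-fold lower on the centred scale.

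Glutathione S-transferases couple glutathione to reactive compounds. All 3 listed members were lower in ovary, beside 35.1% of all tested genes. GST-6A had 1064 and 822 FPKM in heads and 7.81 and 7.53 in ovaries, a difference of -7.42 ± 0.15, or 171-fold (limma adjusted p = 4.93e-05). All 5 genes of its ortholog group were lower, by -8.04 to -7.34, and 1 of them passed the filter through the heads alone. The other 4 had a mean of at least 1 FPKM in each tissue, and 21.0% of all such genes were lower. GST had 994 and 872 FPKM in heads and 6.25 and 10.0 in ovaries, a difference of -7.37 ± 0.22. In males GST was abundant in both tissues, at 2572 and 1463 FPKM in heads and 3569 and 3975 in testes, so the ovary values were the lowest of the 8 listed. Gst2 had 46.2 and 97.6 FPKM in heads and 1.92 and 1.70 in ovaries. Of the 5 tested genes in its group 4 were lower, of which 2 passed the filter through the heads alone. The fifth, LOC101897094, had 2.48 and 2.52 FPKM in heads and 7.20 and 7.56 in ovaries. Of the 3 genes of the group with a mean of at least 1 FPKM in each tissue, 2 were lower, beside 21.0% of all such genes.

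MdaE7, an alpha-esterase known for organophosphate resistance, had 113 and 153 FPKM in heads and 2.62 and 3.23 in ovaries, a difference of -5.62 ± 0.19 (limma adjusted p = 9.11e-05). It was the called member of the esterase list, and ace, which encodes acetylcholinesterase, was not called at 2.03 and 1.66 FPKM in heads against 0.661 and 1.13 in ovaries. Of the 5 genes in the MdaE7 group 4 were lower, of which 2 passed the filter through the heads alone. Of the 3 with a mean of at least 1 FPKM in each tissue, 2 were lower, beside 21.0% of all such genes. Among the superoxide dismutases, SOD (-2.77) and SOD2 (-1.82) were lower, while SOD1 had 48.8 and 48.8 FPKM in heads and 50.5 and 50.3 in ovaries and was not called. With the centre over genes of at least 1 FPKM all 3 dismutases were lower. The small heat shock gene hsp20 was lower by -4.28, and HSP70 was not called at 1428 and 1862 FPKM in heads and 3077 and 3154 in ovaries.

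Among the immune genes, the diptericin pair stood far apart between the heads of the strains. Defensin-1, an antimicrobial peptide, had 551 FPKM in the CS head and 216 in the CSaY head and was listed at 0 in both ovaries. The difference was -8.44 ± 0.48 (limma adjusted p = 0.000244), and the 5 genes of its ortholog group were all called lower and listed at 0 in both ovaries, so all passed the filter through the heads alone. They sit together on scaffold NW_004754939, and LOC101888225 was the most abundant, at 3313 and 1717 FPKM in heads. Diptericin, an antimicrobial peptide of the fly immune response, had 819 FPKM in the CS head, 1.23 in the CSaY head, and 1.62 and 0.526 in the ovaries. The CS head alone was high, and the difference of -4.75 ± 3.00 was not called (limma adjusted p = 0.207). The within-strain values were -8.72 in CS and -0.78 in CSaY. Without the CSaY head it was -9.01 and was called by limma, but then the high CS head was the sole head library and the spread came from the 2 ovaries. The adjusted p ran from 0.00871 to 0.437 over the alternatives. Its group neighbour LOC101896897 had 2194 and 2.40 FPKM in heads and was listed at 0 in both ovaries, and it was not called either.

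Lysozyme, which breaks bacterial cell walls, had 98.7 and 150.1 FPKM in heads and 0 and 0.316 in ovaries, a difference of -6.82 ± 0.25 (limma adjusted p = 0.000101). Of the antimicrobial list 2 of 3 genes were therefore lower, beside 35.1% of all tested genes. These 2, defensin-1 and lysozyme, passed the filter through the heads alone, so their direction followed from it. The lysozyme group has 24 genes, of which 23 lay below 1 FPKM in both ovaries and 7 had at least 10 FPKM in both heads. Of the 9 tested, 8 passed the filter through the heads alone and were lower. The ninth, LOC101888240, passed through the ovaries alone, with 0.281 and 0.338 FPKM in heads and 8.04 and 12.2 in ovaries, and was higher. Male heads held 0.124 and 0.478 FPKM of lysozyme, so its head level in these libraries was high in females and near 0 in males.

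Serpins inhibit serine proteases, many of them in immune and clotting cascades. Of the 4 listed serpins 3 were lower in ovary, beside 35.1% of all tested genes. These 3 had an ovary mean below 1 FPKM and passed the filter through the heads alone, so their direction followed from it. SPN9 had 18.8 and 30.3 FPKM in heads and 0.317 and 0.427 in ovaries, a difference of -4.36 ± 0.26. Spn2 (-1.73) and SPN13 (-1.69) were low in the 4 female libraries, at most 3.52 FPKM. The call of SPN13 was lost without the CS ovary (-1.73) and without the CSaY ovary (-1.65). Its limma adjusted p was 0.0115, and it ran from 0.0031 to 0.0707 over the alternatives. SPN15, outside their ortholog group, had 42.0 and 45.0 FPKM in heads and 141 and 147 in ovaries. Its difference of 0.94 ± 0.09 fell short of 2-fold and was called higher only without centring (1.71). The group of Spn2, SPN9 and SPN13 holds 12 genes, of which 7 had at least 10 FPKM in both heads and 1 in both ovaries. The 9 tested were lower, but 7 passed the filter through the heads alone. The other 2 had a mean of at least 1 FPKM in each tissue, and 21.0% of all such genes were lower.

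Yolk protein gene yp3, the sole named fat body marker, was lower in ovary but varied between strains. It had 347 FPKM in the CS head and 1328 in the CSaY head, and 109 and 27.7 in the CS and CSaY ovaries. Heads and ovaries did not overlap, and the difference was -4.35 ± 0.96 (limma adjusted p = 0.0139), with -2.43 in CS and -6.28 in CSaY. The call was lost without the CS head (-5.32), without the CSaY head (-3.38) and without the CSaY ovary (-3.40). The adjusted p from limma ran from 0.0118 to 0.152 over the alternatives. A related gene on the same scaffold, LOC101889640, had 913 and 890.1 FPKM in heads and 2.71 and 1.71 in ovaries, a difference of -8.64 ± 0.16 (limma adjusted p = 4.56e-05), and 1.06 and 1.08 in male heads. Of the 7 genes in the group 5 were tested and 4 were lower, of which 1 passed the filter through the heads alone. Of the 4 with a mean of at least 1 FPKM in each tissue, 3 were lower, beside 21.0% of all such genes. How much of the head signal comes from fat body was not tested.

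**Figure D3:**
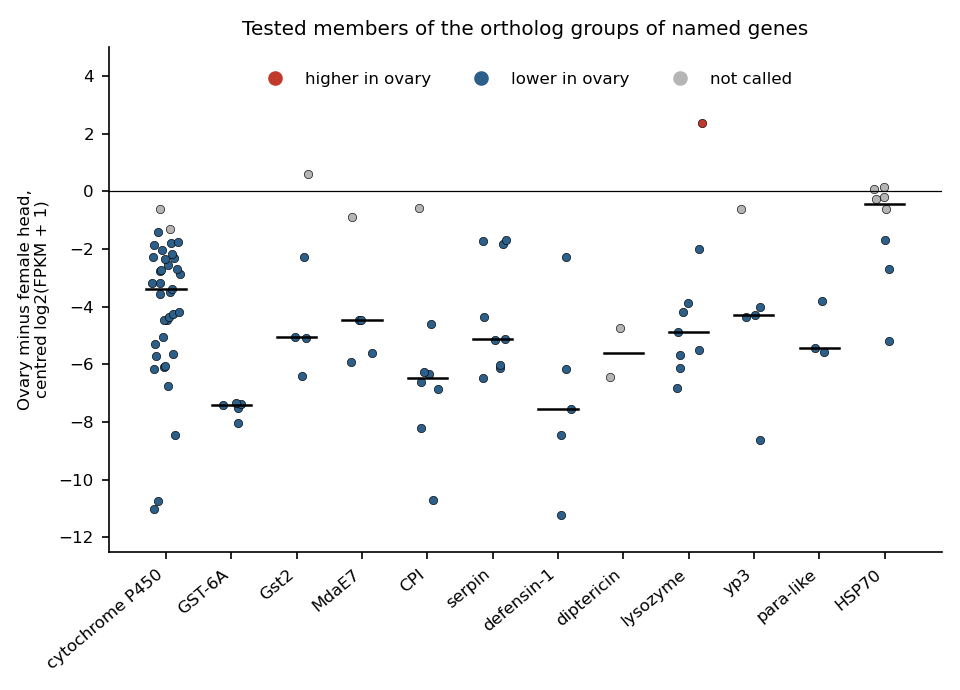
Centred log2 difference, ovary minus female head, of each tested gene in the ortholog groups of named genes, with 1 point per gene, a bar at the group median and colour by call. The P450, GST-6A, serpin and defensin-1 points lie below 0, the HSP70 points include 5 that were not called, and 1 lysozyme gene lies above 0.

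Other named genes lower in ovary have varied roles. ODC, which makes the polyamine putrescine from ornithine, had 47.7 and 152 FPKM in heads and 0.103 and 0 in ovaries, a difference of -6.39 ± 0.59 (limma adjusted p = 0.000904). The water channel gene AQP had 193 and 186 FPKM in heads and 32.4 and 32.4 in ovaries, a difference of -3.26 ± 0.09, or 9.57-fold (limma adjusted p = 6.1e-05). TPS, at 219 and 494 FPKM in heads and 0.344 and 0.409 in ovaries, differed by -8.08. ODC and TPS had an ovary mean below 1 FPKM and passed the filter through the heads alone, so their direction followed from it. The linked genes CPI (-6.85) and CYB1 (-6.59) were lower, and CYB2, on the same scaffold, was not called at 3.19 and 0.624 FPKM in heads and 0.580 and 2.25 in ovaries. Their ortholog group has 8 tested genes, of which 7 were lower, and 4 of these passed the filter through the heads alone. Of the 4 with a mean of at least 1 FPKM in each tissue, 3 were lower, beside 21.0% of all such genes. In this group LOC101893644 was the most abundant, at 4465 and 8293 FPKM in heads. Mda2 was lower by -3.70, with the 4 tested genes of its group, of which 3 passed the filter through the heads alone. TCTP, prohibitin and THY were not called, with differences of -0.02, 0.25 and 0.44.

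The 3 genes with the largest head excess carry no name in the sources used here. LOC101892639 had 22702 and 48293 FPKM in heads and was listed at 0 in both ovaries, a fitted difference of -15.02 ± 0.39 (limma adjusted p = 6.1e-05). Male heads held 45.2 and 41.0 FPKM of it. LOC101898316, on chromosome II and paired with FBgn0002940, had 15647 and 15657 FPKM in heads and 0.122 and 0 in ovaries. It was listed at 19755 FPKM in IIIM male heads and at 0 in YM male heads, and a 0 in such a column can be a failed estimate. LOC101890209 had 16501 and 15716 FPKM in heads and 0.694 and 0 in ovaries, and male heads held 39107 and 41709. These 3 genes had an ovary mean below 1 FPKM and passed the filter through the heads alone, so their direction followed from it.

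Genes near absence in 1 tissue were counted by level, with no test. At least 10 FPKM in both ovaries and below 1 in both heads was found for 303 genes, of which 34 were listed at 0 in both heads. The converse held for 922 genes, of which 310 were listed at 0 in both ovaries. Of the 57 named genes, bcd is in the ovary set, and CPI, CYP6D3, CYP6G4, ODC, SPN9, TPS, defensin-1, lysozyme, nAChRbeta3, para-like and pdf are in the head set. In males, 251 of the 303 ovary genes had at least 1 FPKM in testes of both strains (82.8%) and 26 had it in male heads (8.58%). At 10 FPKM 100 of them remained in testes (33.0%). Over all 9708 tested genes, 88.2% had at least 1 FPKM in testes, 57.6% at least 10, and 90.9% had at least 1 in male heads. Of the 922 head genes 882 had at least 1 FPKM in male heads of both strains (95.7%) and 588 in testes (63.8%). No Drosophila gene is listed in the authors' deposited table for 75 of the ovary genes (24.8%) and 145 of the head genes (15.7%), beside 12.8% of all tested genes.

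Testes were set against male heads in the same way to see which female differences recur in males. These columns share no library with the female ones, but hold the authors' pooled values without replicates, so a difference means at least 2-fold in both strains with no test. Over the 9708 genes 25.1% were higher and 25.7% lower in testis. Of the 2480 genes higher in ovary 1246 were higher in testis (50.2%) and 56 were lower (2.26%). Of the 3403 genes lower in ovary 1867 were lower in testis (54.9%) and 307 were higher (9.02%). Among the 3825 genes not called in females 886 were higher in testis (23.2%) and 574 lower (15.0%). CCT-delta was higher in both gonads, at 357 and 390 FPKM in testes. CYP6G4 and pdf were lower in both. IR25a, Gst2, lysozyme, SPN9 and CYP6A1 were lower in ovary and at least 2-fold higher in testis than in male head.

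**Figure D4:**
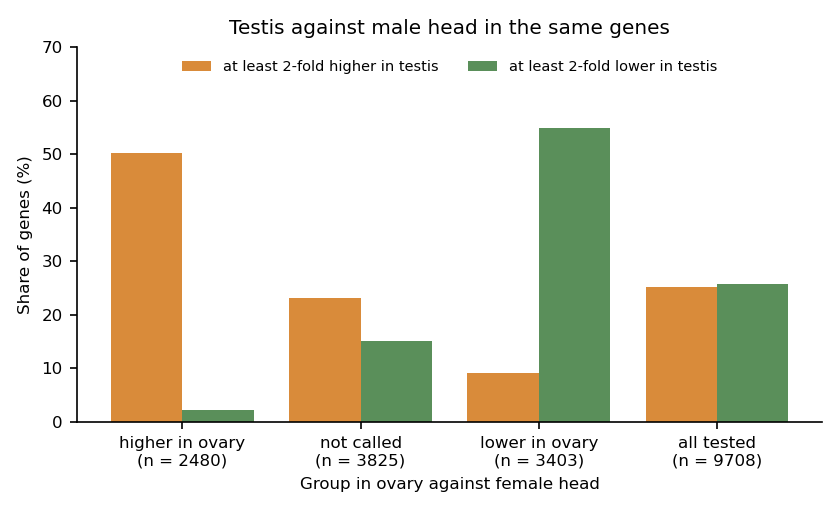
Share of genes at least 2-fold higher or lower in testis than in male head in both strains, in percent, among genes higher in ovary, lower in ovary, not called and all tested. Of genes higher in ovary 50.2% were higher in testis, and of genes lower in ovary 54.9% were lower in testis.

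The shares of calls differed with gene family size. Among the 7111 tested genes that are the sole house fly gene of their ortholog group, 28.9% were higher and 27.7% lower in ovary. In groups of 2 to 4 genes the shares were 18.2% and 49.4%, in groups of 5 to 9 genes 12.5% and 64.7%, and in groups of 10 or more 11.8% and 67.8%. Of the 484 tested genes in the largest groups, 304 passed through the heads alone, against 1021 of the 7111 sole genes. Among genes with a mean of at least 1 FPKM in each tissue, the lower shares from sole genes to the largest groups were 17.9%, 31.7%, 37.4% and 31.7%, and the higher shares 29.7%, 22.2%, 21.2% and 29.8%. The sources used here do not say how reads were divided between similar copies, so levels of single copies are uncertain. Genes with a listed Drosophila gene were higher in 24.9% and lower in 34.1%, and those with none in 29.9% and 41.5%, and without centring the order of the higher shares turned, to 39.2% and 38.6%. The median length of the locus was 4637 bases for genes higher in ovary, 6091 for lower genes and 3362 for genes not called.

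By chromosome the higher share ran from 23.1% on chromosome I to 28.9% on chromosome III among the 5 large chromosomes, and the lower share from 29.9% on chromosome IV to 35.7% on chromosome I. On the X chromosome, with 30 tested genes on 7 scaffolds, 9 were higher and 12 lower, while 43.3% were higher without centring and 16.7% with the centre over genes of at least 1 FPKM. Without centring chromosome IV had the highest share of higher genes of the 5 large chromosomes, 42.3%. Genes on scaffolds with no chromosome were higher in 21.5% and lower in 46.7%. No test was made, as genes of 1 scaffold are not independent.

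**Figure D5:**
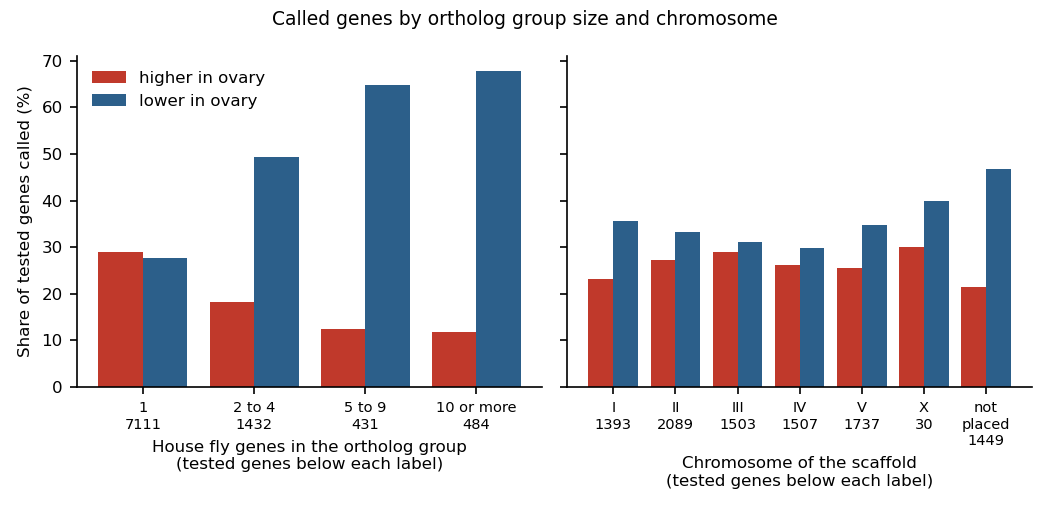
Share of tested genes called higher (red) or lower (blue) in ovary, in percent, by number of house fly genes in the ortholog group (left) and by chromosome (right), with tested genes under each label. The lower share goes from 27.7% for sole genes to 67.8% for groups of 10 or more, while the 5 large chromosomes lie between 29.9% and 35.7%. Of the 484 genes in the largest groups 304 passed the filter through the heads alone.

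Genes lower in ovary often lay side by side. The next tested gene on the scaffold was also lower for 48.6% of them, against 33.3% over all genes in these pairs, and for higher genes the values were 33.2% and 26.7%. Leaving out neighbours of the same ortholog group gave 41.9% against 30.6% for lower genes and 32.7% against 27.9% for higher ones. Genes that share a locus with another, and genes below the filter, were passed over in these counts, and of all 3403 lower genes 1941 passed the filter through the heads alone. A run of 14 lower genes, consecutive among those left, lies at positions 1139 to 239543 of scaffold NW_004765183. It includes CYP6A1 and CYP6A40, and 10 of the 14 belong to their ortholog group, with differences from -5.77 to -2.07. The scaffold holds 18 genes of that group in all, of which 13 were tested and lower, 3 of them at a shared locus, and 5 fell below the filter. A run of 13 lower genes on chromosome II begins at Gst2, at positions 143771 to 412677 of scaffold NW_004764700. Another 14 lower genes from 8 ortholog groups follow each other on scaffold NW_004764661 of chromosome V, none of which carries a name. The longest runs of higher genes held 8. The one on scaffold NW_004764732 of chromosome III, at positions 46987 to 288972, came from 8 different ortholog groups, with differences from 1.13 to 3.75.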

How the data were processed

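The authors' deposited table gives FPKM for 14631 genes, per the file headers 1 column per strain and female tissue. Each such column matches 1 library. Read counts were not used here, so depth is unknown. Among low genes, the most frequent ratio of CSaY to CS FPKM was near 1.21 in heads (60 of 797 genes). In ovaries it was near 0.966 (139 of 1037 genes). Such a ratio may reflect how much FPKM 1 fragment was worth in each library, which was not measured. The q value and score columns of the authors' deposited table entered no result. The 4 FPKM columns that pool strains were not used. The submitters' processing notes list Cufflinks 2.2.1, Bowtie2 2.1.0.0, TopHat2 2.0.8b and CASAVA 1.8.2. What each did, and on which genome build, the sources used here do not say. TRIzol, RNeasy columns and TruSeq kits were used, per the labels' protocols.

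Log2(FPKM + 1) values were fitted with limma 3.58.1 in R 4.3.3 (eBayes with trend, 2 residual degrees of freedom), and p-values adjusted over all tested genes. The fit was also run on simulated data that used head means for both tissues and few changed genes, unlike these data. That run does not show how the centring or the calls perform here. Tables used Python 3.11.15, pandas 2.3.3 and numpy 2.4.6. The strain marks the pairing, by the labels, and the correlation of same-strain deviations was -0.068. Gene names were taken from RefSeq (assembly GCF_030504385.1), whose coordinates were not used, and which held 12168 gene IDs (83.2%), 52 with a symbol and 5 more through a synonym. Positions follow the authors' deposited table, counted from 1, and the sources used here do not name their assembly. At 1732 genes that share a locus with another, the division of reads is unknown.

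Of called genes at 10 FPKM or more in both libraries of the higher tissue, the text names the 10 with a name and the 3 of any kind that differ most in each direction, up to 4 members of each list, tissue markers, and 3 genes opposite between strains. The other named genes, 3 further lists (electron donors, superoxide dismutases, heat shock) and the ortholog groups were picked with their values in view. A name matched in 17 of 39 lists. The members and lists were chosen with earlier results of these data known. Promoter motifs were not run, as no sequences were used here. Alternatives were other centrings, pseudocounts, filters and thresholds, the strain as a block, loci with 1 gene, and each library left out. With a library left out, 2-fold was needed only in the strain with both tissues and in the fitted difference.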

Additional observations from a re-analysis of the deposited data

Results flagged for a closer look

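In 6 of the genes named here the difference between ovary and female head had opposite signs in the strains. With 1 library per strain and tissue, the difference between strains was not tested. The gene LOC101898400 had -3.02 in CS and 13.07 in CSaY, from 18115 FPKM and 0 in the CS and CSaY heads and 3809.5 and 14795 in the ovaries. The 0 of its CSaY head stands alone among 8 columns that otherwise hold at least 3809.5 FPKM, and a value of 0 can be a failed estimate. LOC101900378 had -1.92 in CS and 6.33 in CSaY, and its CSaY ovary alone was high, at 182 FPKM against 0 in the CS ovary. LOC101891084, of the yp3 group, had 1.61 and -2.87, from 0.992 and 11.9 FPKM in heads and 8.72 and 1.31 in ovaries. CYB2, low in the 4 female libraries, had -1.65 and 0.51. HSP70 had 0.332 and -0.021 and TCTP 0.048 and -0.097, values near 0 in both strains.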

How the results depend on the processing

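Across 13 alternatives, 712 of 762 comparisons of 60 named genes kept their direction and call, 30 lost a call, 9 gained one and 11 changed sign. The count of higher genes was 3798 without centring and 1173 at 4-fold, and that of lower genes was 1969 of 6923 genes with a mean of at least 10 FPKM. Leaving out each library in turn left 1 library in a tissue. A call then needed 2-fold in the strain with both tissues and in the fitted difference, not in both strains. Calls with a library left out therefore follow another rule than those of the main fit. With the strain as a replicate block 2482 genes were higher and 3409 lower, and the block changed no call of a named gene. Signs changed without centring for SOD1 (0.046) and TCTP (0.753), and with the centre over genes of at least 1 FPKM for HSP70 (-0.164) and prohibitin (-0.065). They also changed when the CS head was left out for CYB2 and HSP70, when the CSaY head was left out for TCTP, LOC101891084 and LOC101898400, and when the CSaY ovary was left out for LOC101891084 and LOC101900378. Over the 4 libraries left out, the differences ran from -1.251 to 0.114 for CYB2, -0.037 to 0.348 for HSP70, -0.107 to 0.058 for TCTP, -1.973 to 0.720 for LOC101891084, -1.165 to 5.58 for LOC101900378 and -2.047 to 12.098 for LOC101898400. The 2 libraries per tissue and the unknown depth limit low genes most, and the cause of these changes was not tested.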
